A study of Mus musculus with 14 samples.

Results

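The 10 immediate early genes described here are Fos, Fosb, Fosl1, Jun, Junb, Egr1, Egr2, Atf3, Ier2 and Dusp1. They were taken from a mouse gene count table by symbol, so they are 10 of its 55291 rows, and all 10 were among the 20562 genes with enough counts to be tested. The table holds RNA-seq of cells taken along a chemical conversion of mouse embryonic fibroblasts towards retinal pigment epithelium (RPE), the pigmented layer that serves the photoreceptors. Each symbol had a single row.

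All 14 libraries came from C57BL/6J mice with no other allele given. D7 and D18 were cells on day 7 and day 18 (3 libraries each), labelled as reprogramming intermediates. They were kept in a medium called M7 with the growth factor bFGF and the small molecules CKI-7, BMS-345541, RG108, Hh-Ag1.5, A 83-01, LDN193189 and CHIR-99021. D32 was cells on day 32 (3 libraries), labelled ciRPE and given a second medium called M3 with activin A, retinoic acid, nicotinamide and Y27632. MEF was the fibroblasts themselves (3 libraries) and P-RPE was primary RPE with no treatment (2 libraries). The labels also list the M7 medium for the MEF libraries and E13.5 embryos as the tissue of all 14, P-RPE included. Converted cells were scraped from areas that looked well induced, so these libraries stand for selected cells and not for whole dishes. Any effect of handling at harvest on the levels of these genes was not tested. The labels do not say whether replicates came from separate cultures or animals, so p-values measure only the spread between these libraries, which may be technical.

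Immediate early genes are transcribed within minutes of a growth factor, a depolarisation or a stress, with no need for new protein. Signals through MAP kinases and calcium reach the serum response factor with its partners and CREB, which are largely bound at these promoters beforehand, and the RNAs are short-lived. Products of the Fos and Jun genes pair to form AP-1, which binds TGANTCA sites. The Egr genes encode zinc finger factors, Atf3 encodes a stress-induced factor of the ATF/CREB family, Ier2 encodes a small nuclear protein, and Dusp1 encodes a phosphatase that switches MAP kinases off.

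Library totals lay between 32352405 and 41390196 counts. Levels are CPM, a read count scaled to the library's size, after TMM scaling, which corrects library totals for composition. The 10 RPE markers summed to 4161 to 8269 CPM in D32 and to 57585 to 65513 CPM in P-RPE, against 1.62 to 2.37 CPM in MEF, where 5 of them (Rpe65, Lrat, Rgr, Ttr and Tyr) were at 0. The 8 fibroblast markers summed to 26375 to 27693 CPM in MEF and to 18837 to 29519 CPM in D32. Astrocyte markers reached 24333 to 35969 CPM in D18, and P-RPE held rod photoreceptor markers at 944 and 2674 CPM. Macrophage markers summed to 953 and 966 CPM in P-RPE, 106 to 180.2 CPM in D32 and 45.9 to 52.5 CPM in MEF, and endothelial markers to 519 and 628 CPM in P-RPE, 82.2 to 109.6 CPM in D32 and 51.5 to 56.7 CPM in MEF. In such bulk libraries, fewer cells of a type and less RNA per cell cannot be told apart.

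Promoter sequences are shown for the 5 members whose window held a motif of the factors named above. RefSeq windows (build GRCm38.p6) were searched for 7 of the 10 members. No window was searched for Fosl1, Egr1 and Ier2, so the motif counts below say nothing about the promoters of those genes. The 250 bases before each start were searched on both strands for TGACGT (the shorter CREB site), TGACGTCA (the full CREB site, which contains TGACGT), the CArG box of the serum response factor, TGANTCA and GCGNGGGCG (the Egr site), and on the gene's strand for TATAAA. Sequences run 5′ to 3′ on the gene's strand, and capitals mark the matches, a TGACGT on the other strand being read as ACGTCA.
Fos, chr12:85473790-85473889, plus strand: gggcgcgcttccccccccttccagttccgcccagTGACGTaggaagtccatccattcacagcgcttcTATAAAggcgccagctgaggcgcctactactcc
Fosb, chr7:19310046-19310145, minus strand: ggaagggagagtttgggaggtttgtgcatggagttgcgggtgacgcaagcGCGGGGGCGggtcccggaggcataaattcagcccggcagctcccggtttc
Egr2, chr10:67537769-67537868, plus strand: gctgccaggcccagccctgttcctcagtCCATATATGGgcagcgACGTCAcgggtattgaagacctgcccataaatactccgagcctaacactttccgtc
Atf3, chr1:191183334-191183433, minus strand: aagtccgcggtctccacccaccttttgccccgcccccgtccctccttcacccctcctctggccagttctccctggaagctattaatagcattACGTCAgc
Dusp1, chr17:26508473-26508672, minus strand: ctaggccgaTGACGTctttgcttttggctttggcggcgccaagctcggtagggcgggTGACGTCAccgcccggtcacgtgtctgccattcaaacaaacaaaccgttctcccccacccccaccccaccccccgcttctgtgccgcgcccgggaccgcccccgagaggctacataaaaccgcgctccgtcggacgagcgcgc

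TGACGT was present in 4 of the 7 windows (Fos, Egr2, Atf3 and Dusp1), against 6.47% of all 32851 windows of that length. Dusp1 also held the full TGACGTCA, present in 1.55% of all windows, and Egr2 held a CArG box, present in 1.47%. The Egr site was in Fosb (4.70% of all windows) and TATAAA was in Fos (7.59%). TGANTCA was in none of the 7 windows, against 6.75% of all windows. The Jun and Junb windows held none of these letters. These matches describe the letters of short windows only.

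Fos, on chromosome 12 (85473890 to 85477273, GRCm38), encodes the founding AP-1 subunit. Its level was 18.27, 17.8 and 15.7 CPM in MEF and 1059, 1411 and 929.6 CPM in D7. It was 2029, 1316 and 1123 CPM in D18, 533, 516 and 556 CPM in D32, and 642 and 1136 CPM in P-RPE. Every converted and P-RPE library was above every MEF library, and D32 was the tightest of the groups above MEF. The order of means was D18, D7, P-RPE, D32 and MEF, in which D18 and D7, and D7 and P-RPE, did not differ beyond their spread.

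Fosb, on chromosome 7 (19302696 to 19310051), encodes a second Fos partner for Jun proteins. Its level was 7.85, 7.11 and 7.46 CPM in MEF and 921.5, 1222 and 654.5 CPM in D7. It was 659, 634 and 431 CPM in D18, 283, 235 and 304 CPM in D32, and 349 and 579 CPM in P-RPE. Unlike Fos, its highest mean was in D7, and the libraries of D7 and D18 overlapped only through 1 D7 and 1 D18 library. Its order was D7, D18, P-RPE, D32 and MEF, with D18 and P-RPE the only neighbours that did not differ beyond their spread.

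Fosl1, on chromosome 19 (5447547 to 5455946), encodes Fra-1, an AP-1 subunit that lacks the activation domain of Fos. Its level was 31.0, 32.265 and 31.5 CPM in MEF and 16.2, 10.6 and 15.4 CPM in D7. It was 1.99, 1.41 and 1.14 CPM in D18, 2.95, 4.80 and 2.43 CPM in D32, and 0.392 and 0.697 CPM in P-RPE, the last from 14 and 26 counts. It was the single member with its highest level in MEF, and all 4 neighbours in its order (MEF, D7, D32, D18 and P-RPE) differed beyond their spread. Its exons share 1163 of 2033 bases with Ccdc85b on the other strand, which lay between 38.1 and 80.0 CPM in all libraries. The strand setting of the counting is not given in the sources used here, so reads of the 2 genes may be shared.

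Egr1, on chromosome 18 (34859823 to 34864984), encodes a zinc finger factor induced by growth factors and by synaptic activity. Its level was 267, 278 and 237 CPM in MEF and 1929, 2100 and 1756 CPM in D7. It was 1921, 1444 and 862 CPM in D18, 568, 559 and 647 CPM in D32, and 1073 and 1564 CPM in P-RPE. All D7 and D18 libraries were above all D32 and MEF libraries. D7, D18 and P-RPE followed each other in its order with no difference beyond their spread, above D32 and then MEF.

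Egr2, on chromosome 10 (67535475 to 67542188), encodes a zinc finger factor related to Egr1, best known for its part in myelinating Schwann cells. Its level was 3.90, 4.12 and 3.97 CPM in MEF and 45.5, 44.2 and 42.7 CPM in D7. It was 29.7, 27.0 and 10.7 CPM in D18, 26.8, 18.6 and 23.0 CPM in D32, and 41.7 and 54.9 CPM in P-RPE. P-RPE and D7 held the highest means and did not differ beyond their spread, nor did D32 and D18. Per kilobase of exon (RPKM), the level of Egr2 was 1.92% to 2.21% of that of Egr1 in MEF, 2.78% to 3.21% in D7, 1.63% to 2.46% in D18 and 4.39% to 6.23% in D32, and 5.13% and 4.63% in P-RPE.

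Atf3, on chromosome 1 (191170296 to 191218039), had 8.83, 9.59 and 9.44 CPM in MEF and 41.9, 45.2 and 43.8 CPM in D7. It had 153, 96.6 and 51.7 CPM in D18, 69.3, 43.7 and 71.8 CPM in D32, and 117 and 160 CPM in P-RPE. Its D18 libraries spread over a wider range than those of D7, and the lowest of them still lay above all D7 libraries. Of its order (P-RPE, D18, D32, D7 and MEF), only D7 and MEF were neighbours that differed beyond their spread.

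Jun and Junb, on chromosome 4 (95049034 to 95052222) and chromosome 8 (84974484 to 84978718), encode the partners that Fos proteins need to bind DNA. Jun lay between 285 and 291 CPM in MEF, 602 and 691 in D7, 640 and 804 in D18, and 330.1 and 354 in D32, and had 611 and 932 CPM in P-RPE. Junb lay between 152 and 178 CPM in MEF, 679 and 944 in D7, 594 and 874 in D18, and 369.6 and 464 in D32, and had 836 and 1339 CPM in P-RPE. For both, D32 and MEF were the 2 lowest groups. The Jun means of D32 and MEF did not pass the test, although all D32 libraries lay above all MEF libraries. Jun shares 232 exon bases with the antisense gene Junos, which had at most 2.43 CPM. Junb shares 173 with Prdx2 on the other strand, which lay between 163 and 255 CPM in all libraries. As for Fosl1, reads of these pairs may be shared.

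Ier2, on chromosome 8 (84661331 to 84662852), lay between 54.4 and 58.2 CPM in MEF, 192 and 226 in D7, 134 and 276 in D18, and 96.9 and 133 in D32, and had 191 and 271 CPM in P-RPE. Dusp1, on chromosome 17 (26505590 to 26562128), had 187, 202 and 194 CPM in MEF and 249.6, 342 and 233 CPM in D7. It had 738, 542 and 303 CPM in D18, 326, 384 and 314 CPM in D32, and 293 and 456 CPM in P-RPE. No neighbours in the order of Dusp1 (D18, P-RPE, D32, D7 and MEF) passed the test, although all D7 libraries lay above all MEF libraries. Its exons overlap those of Ergic1 by 11 bases. Of the comparisons used only to order neighbouring groups, D18 vs MEF called 70.2% of all tested genes, D32 vs D7 50.8%, D7 vs P-RPE 63.9% and D18 vs P-RPE 56.2%.

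**Figure D1:**
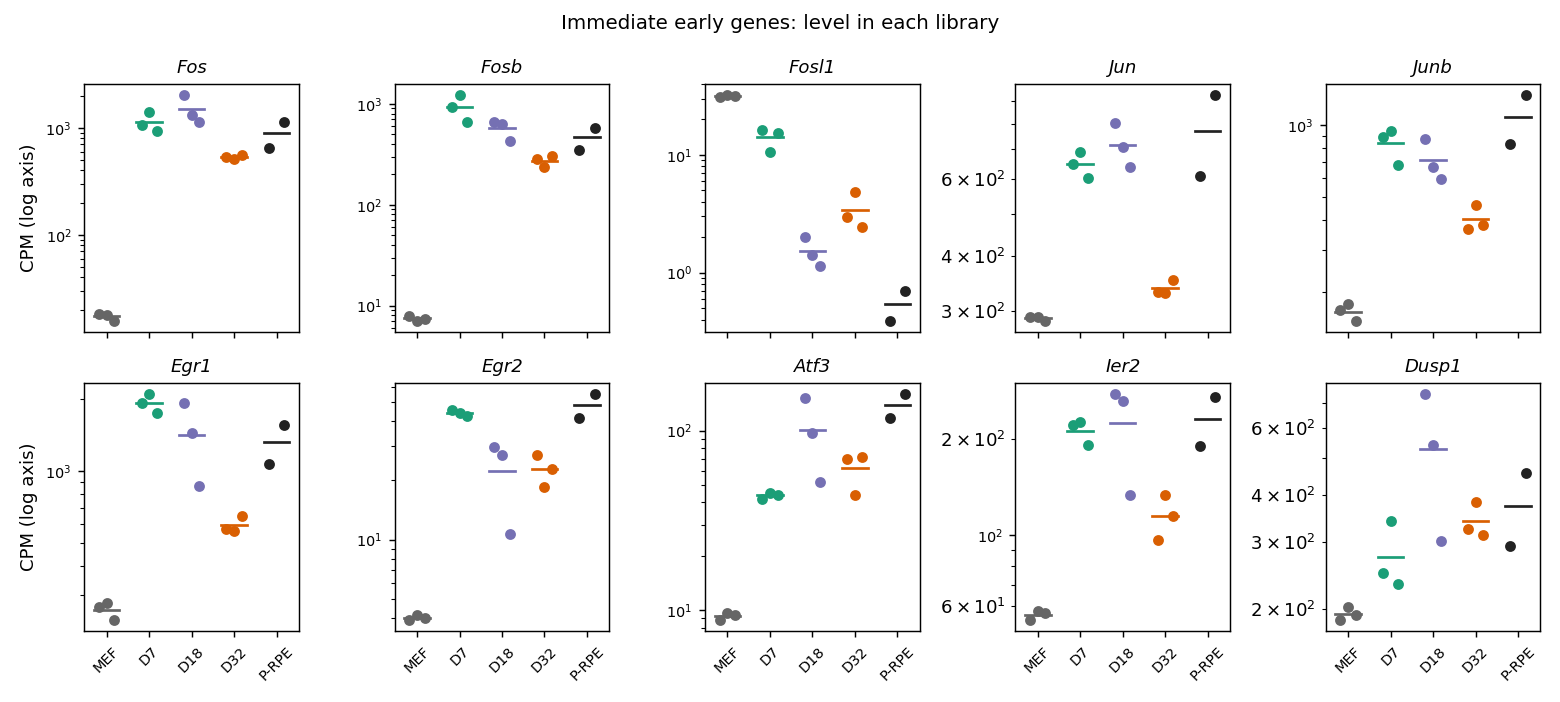
Level of each immediate early gene in every library, in CPM on a log axis, by group in time order with P-RPE last. Points are libraries and bars are group means; MEF is the lowest group for 9 genes, while Fosl1 is highest in MEF with a mean of 31.6 CPM.

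Between MEF and D7, 8 of the 10 genes rose and Fosl1 fell. Of all genes tested, 28.5% rose and 26.5% fell in this comparison (55.0% called). Mitochondrial genes took 3.30% to 3.67% of counts in D7 and 1.27% to 1.39% in MEF, and fibroblast markers summed to 10208 to 10903 CPM in D7 and to 26375 to 27693 CPM in MEF; their part in these changes was not tested. Fosb averaged 933 ± 284 CPM in D7 and 7.47 ± 0.37 CPM in MEF (SD, n = 3 each), a log2 change of 6.96 (SE 0.30, 125-fold, quasi-likelihood test of edgeR, Benjamini-Hochberg adjusted over all tested genes, adjusted p = 2.41e-10). That rise exceeded the change of 98.9% of tested genes. Fos averaged 1133 ± 249 CPM in D7 and 17.3 ± 1.34 CPM in MEF (log2 change 6.04, SE 0.29, 65.7-fold, edgeR adjusted p = 4.75e-10).

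The other members that rose did so by less. Egr2 rose by 3.46 on the log2 scale (SE 0.30), Egr1 by 2.89 (SE 0.24), Junb by 2.34 (SE 0.20), Atf3 by 2.23 (SE 0.32), Ier2 by 1.91 (SE 0.23) and Jun by 1.16 (SE 0.14). Fosl1 fell by 1.17 (SE 0.25, edgeR adjusted p = 0.000969), with all D7 libraries below all MEF libraries. Dusp1 had a log2 change of 0.50 that did not pass the test (95% interval -0.05 to 1.05, edgeR adjusted p = 0.117), although its D7 and MEF libraries did not overlap. It passed with a model of the D7 and MEF libraries alone (edgeR adjusted p = 0.00625) and with library totals alone (0.0107). That last scaling moved the median gene by 0.32 and made 69.7% of called genes higher, against 51.8% with TMM, but changed no member's direction.

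The median log2 change of the 10 genes was 2.28, against 0.04 over all tested genes. Other immediate early genes did not all move this way. Of 13 other immediate early transcription factors, 6 rose and 2 fell. Egr3, another Egr factor, averaged 53.3 ± 8.004 CPM in D7 and 5.02 ± 0.69 CPM in MEF, and Myc averaged 59.1 ± 19.3 CPM in D7 and 143 ± 5.20 CPM in MEF (SD, n = 3 each), both past the edgeR test. Of 18 other immediate early genes, 7 rose and 8 fell. Zfp36, which speeds the decay of AU-rich mRNAs, rose by 2.42 on the log2 scale, and Ccn2, a matrix protein also driven by YAP, fell by 6.12.

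Of 13 upstream regulators, 9 fell and 4 did not pass, and among those that fell were Srf, which encodes the serum response factor (log2 change -1.23), and Mrtfa, its actin-sensing partner (log2 change -1.42). Creb1 had a log2 change of -0.08 that did not pass the test. Of 9 other MAP kinase phosphatases, 6 fell, Dusp9 and Dusp5 the most, and 1 rose, the ERK phosphatase Dusp6 (282 ± 6.22 CPM in D7 and 101 ± 2.97 CPM in MEF, SD, n = 3 each). Of 9 heat shock genes, 6 fell and 1 rose, and of 8 integrated stress response genes, 4 fell and 2 rose.

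**Figure D2:**
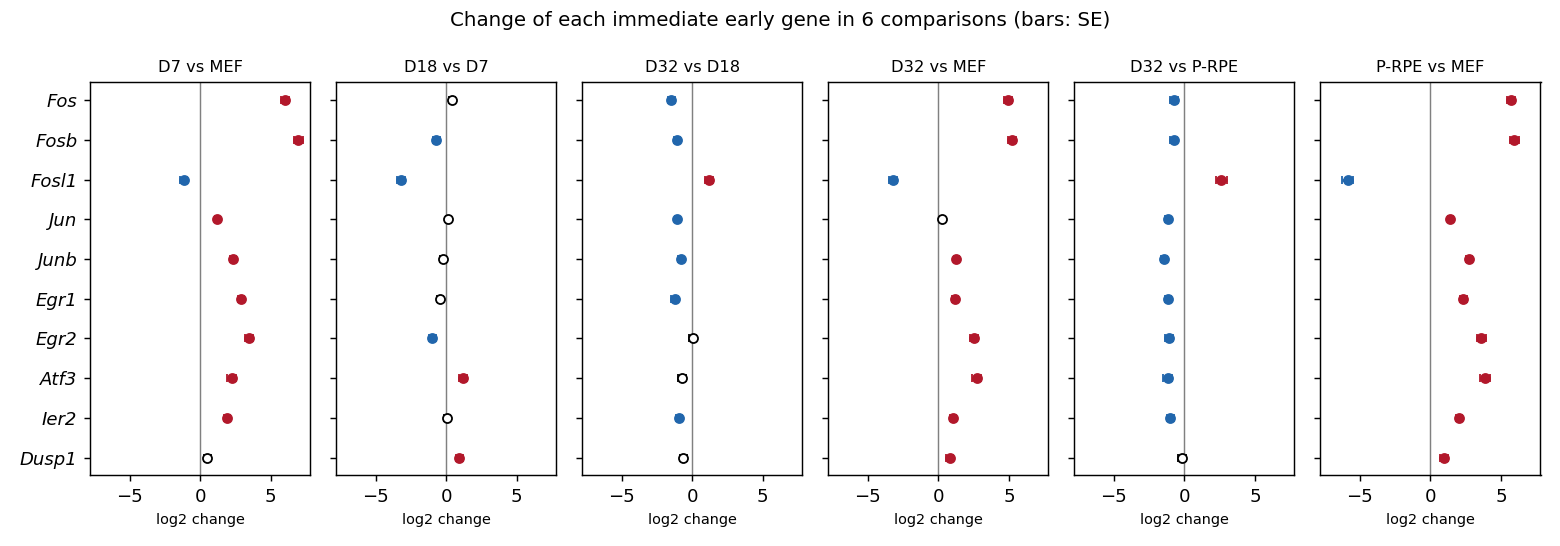
Log2 change of each immediate early gene in the 6 comparisons, with bars that show the SE from the edgeR model on each side. Red points were called higher, blue points lower, and open points were not called; Fosb and Fos stand at 6.96 and 6.04 for D7 vs MEF, and Fosl1 stands opposite to the others in every comparison with MEF.

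Between D7 and D18, both in the M7 medium, the genes divided. Atf3 and Dusp1 rose, Fosb, Egr2 and Fosl1 fell, and 5 did not pass the test, where 29.2% of all tested genes rose and 27.4% fell (56.6% called). Atf3 averaged 100.4 ± 50.7 CPM in D18 and 43.6 ± 1.67 CPM in D7 (SD, n = 3 each; log2 change 1.20, SE 0.30, edgeR adjusted p = 0.00393). Dusp1 averaged 528 CPM in D18 and 275 CPM in D7 (log2 change 0.94, SE 0.26, edgeR adjusted p = 0.00662), with overlapping libraries.

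Fosl1 averaged 1.52 ± 0.44 CPM in D18 and 14.1 ± 3.06 CPM in D7, and fell by 3.21 on the log2 scale (SE 0.28, 9.25-fold, edgeR adjusted p = 2.17e-07). Egr2 fell by 0.98 (SE 0.27) and Fosb by 0.70 (SE 0.23). The fall of Fosb no longer passed without D7 replicate 2 (edgeR adjusted p = 0.079) or without D18 replicate 3 (0.0701), and that of Egr2 did not pass in a model of the D18 and D7 libraries alone (0.0534). Fos had a log2 change of 0.39 (95% interval -0.09 to 0.88) and Egr1 one of -0.45 (-0.92 to 0.02), neither of which passed. Without D18 replicate 1, Egr1 fell by 0.74 (edgeR adjusted p = 0.00838). With library totals alone, 40.7% of called genes were higher in D18, against 51.6% with TMM, and Egr1 (edgeR adjusted p = 0.0119) and Junb (0.0327) were called lower.

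Of the 9 other MAP kinase phosphatases, 5 fell and 2 rose between D7 and D18. Dusp6 averaged 31.8 ± 10.2 CPM in D18 and 282 ± 6.22 CPM in D7, a log2 change of -3.15. Jund, the Jun family member known for steady expression, averaged 154 ± 11.3 CPM in D18 and 58.2 ± 6.53 CPM in D7 and rose by 1.40. Of the 13 other immediate early transcription factors, 3 rose and 3 fell.

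Between D18 and D32, across the change to the M3 medium, 6 of the 10 genes fell and Fosl1 rose, where 26.1% of all tested genes fell and 29.9% rose (56.0% called). Fos averaged 535 ± 20.1 CPM in D32 and 1489 ± 477 CPM in D18 (SD, n = 3 each), and fell by 1.48 on the log2 scale (SE 0.23, edgeR adjusted p = 8.36e-05). Egr1 fell by 1.25 (SE 0.22), Jun by 1.08 (SE 0.14), Fosb by 1.07 (SE 0.23), Ier2 by 0.96 (SE 0.22) and Junb by 0.81 (SE 0.19). The D32 and D18 libraries of these 6 genes did not overlap, as for 27.9% of all tested genes with D32 below D18.

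Fosl1 averaged 3.39 ± 1.25 CPM in D32 and 1.52 ± 0.44 CPM in D18 and rose by 1.16 (SE 0.28, edgeR adjusted p = 0.00268). Atf3 (log2 change -0.70, edgeR adjusted p = 0.0591) and Dusp1 (-0.63, 0.0514) did not pass the test, and without D18 replicate 3 both fell (edgeR adjusted p = 0.000831 for Atf3 and 0.00135 for Dusp1), as they did in DESeq2 (0.0161 for Atf3 and 0.0154 for Dusp1). Egr2 had a log2 change of 0.02 (95% interval -0.56 to 0.60). The median change of the 10 genes was -0.89, against 0.07 over all tested genes.

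Other immediate early genes were divided. Ccn2 averaged 2196 ± 495 CPM in D32 and 39.6 ± 24.6 CPM in D18, and Ptgs2, which makes prostaglandin precursors, averaged 265 ± 70.3 CPM in D32 and 11.3 ± 4.76 CPM in D18 (SD, n = 3 each), both past the edgeR test. Of the 18 genes of that list, 5 rose and 6 fell. Egr3 fell by 2.18 on the log2 scale, and Jund by 1.36. Of the 8 integrated stress response genes, 5 rose and 3 did not pass.

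D32 cells still stood above the fibroblasts for 8 of the 10 genes, where 35.6% of all tested genes were higher and 24.6% lower (60.2% called). Fos was 31.0-fold higher in D32 than in MEF (log2 change 4.96, SE 0.27, edgeR adjusted p = 2.4e-09) and Fosb 36.6-fold (log2 change 5.20, SE 0.28). Atf3 was higher by 2.73 on the log2 scale, Egr2 by 2.51, Junb by 1.29, Egr1 by 1.18, Ier2 by 1.03 and Dusp1 by 0.81, the last not past the test without D32 replicate 2 (edgeR adjusted p = 0.0604). Jun had a log2 change of 0.23 that did not pass (95% interval -0.07 to 0.52) and passed with library totals alone (edgeR adjusted p = 0.013). Fosl1 was lower by a log2 change of -3.22. The fibroblast marker sum was about as high in D32 as in MEF, as given above.

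Set against primary RPE, D32 cells were lower for 8 of the 10 genes and higher for Fosl1, where 26.8% of all tested genes were lower and 27.1% higher (53.9% called). Junb averaged 406 ± 50.7 CPM in D32 (SD, n = 3) and 1088 CPM in P-RPE (n = 2), a log2 change of -1.42 (SE 0.21, edgeR adjusted p = 3.74e-05). Jun had a log2 change of -1.19 (SE 0.15), Atf3 of -1.17 (SE 0.32), Egr1 of -1.16 (SE 0.24), Egr2 of -1.08 (SE 0.30), Ier2 of -1.004 (SE 0.24), Fosb of -0.76 (SE 0.25) and Fos of -0.73 (SE 0.25). Fosl1 was higher by 2.63 (SE 0.37), and Dusp1 did not pass (log2 change -0.13, 95% interval -0.75 to 0.48).

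All D32 libraries lay below both P-RPE libraries for the 8 genes, as for 34.6% of all tested genes. Without P-RPE replicate 2, P-RPE is a single library assumed to vary like the other groups, and 4 genes were called, Fosl1 higher and Jun, Junb and Egr1 lower. The log2 change was then -0.93 for Atf3 (edgeR adjusted p = 0.0892), -0.87 for Egr2 (0.074) and -0.73 for Ier2 (0.0532). It was -0.35 for Fosb (0.336) and -0.26 for Fos (0.459), where both libraries gave -0.76 for Fosb and -0.73 for Fos. Fos also lost its call without D32 replicate 1 (edgeR adjusted p = 0.0552) or 2 (0.0646), and Fosb without D32 replicate 2 (0.0723). P-RPE replicate 2 held more rod photoreceptor marker RNA than P-RPE replicate 1, at 2674 against 944 CPM, and more red cell marker RNA, at 1778 against 974 CPM. In D32 these sums were 6.56 to 53.3 CPM for rods and 102 to 204 CPM for red cells. The part of these, and of the macrophage and endothelial markers given above, in the result was not tested. With library totals alone, 62.1% of called genes were higher in D32, against 50.2% with TMM, and neither Fos (edgeR adjusted p = 0.0923) nor Fosb (0.0939) passed. With no filter on low counts, Fos (edgeR adjusted p = 0.12), Fosb (0.102) and Atf3 (0.0508) did not pass.

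The other immediate early transcription factors lay on the same side where they passed, with 6 of 13 lower in D32 than in P-RPE and 7 not past the test. Nr4a1, an orphan nuclear receptor, averaged 199.6 ± 19.2 CPM in D32 (SD, n = 3) and 814 CPM in P-RPE (n = 2). Of the 9 other MAP kinase phosphatases, 5 were lower, among them Dusp4 (66.3 CPM in D32 and 477 CPM in P-RPE) and Dusp6 (83.6 CPM in D32 and 443 CPM in P-RPE), and Dusp9 was higher (2.03 CPM in D32 and 0.215 CPM in P-RPE). Of the 18 other immediate early genes, 8 were lower and 3 higher, and Ccn2 was higher, at 2196 CPM in D32 and 327 CPM in P-RPE. Of the 9 heat shock genes, 4 were higher and 3 lower. Hsph1 averaged 256 CPM in D32 and 42.8 CPM in P-RPE, and Hspa1a, a stress-inducible gene, averaged 16.8 CPM in D32 and 70.1 CPM in P-RPE.

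P-RPE itself exceeded MEF for 9 of the 10 genes, and Fosl1 was lower, where 39.3% of all tested genes were higher and 31.4% lower (70.7% called). The log2 changes were 5.96 for Fosb, 5.69 for Fos, 3.90 for Atf3, 3.59 for Egr2, 2.71 for Junb, 2.34 for Egr1, 2.03 for Ier2, 1.42 for Jun and 0.95 for Dusp1. Without P-RPE replicate 2, which leaves a single P-RPE library assumed to vary like the other groups, Dusp1 had a log2 change of 0.59 that did not pass (edgeR adjusted p = 0.142). Fosl1 had a log2 change of -5.84 (SE 0.39, 57.5-fold lower, edgeR adjusted p = 4.12e-09). The comparisons of D7, D32 and P-RPE with MEF share the MEF libraries. Hspa1a averaged 70.1 CPM in P-RPE and 5.01 CPM in MEF and was also called higher, and the heat shock list split into 2 higher and 5 lower.

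**Figure D3:**
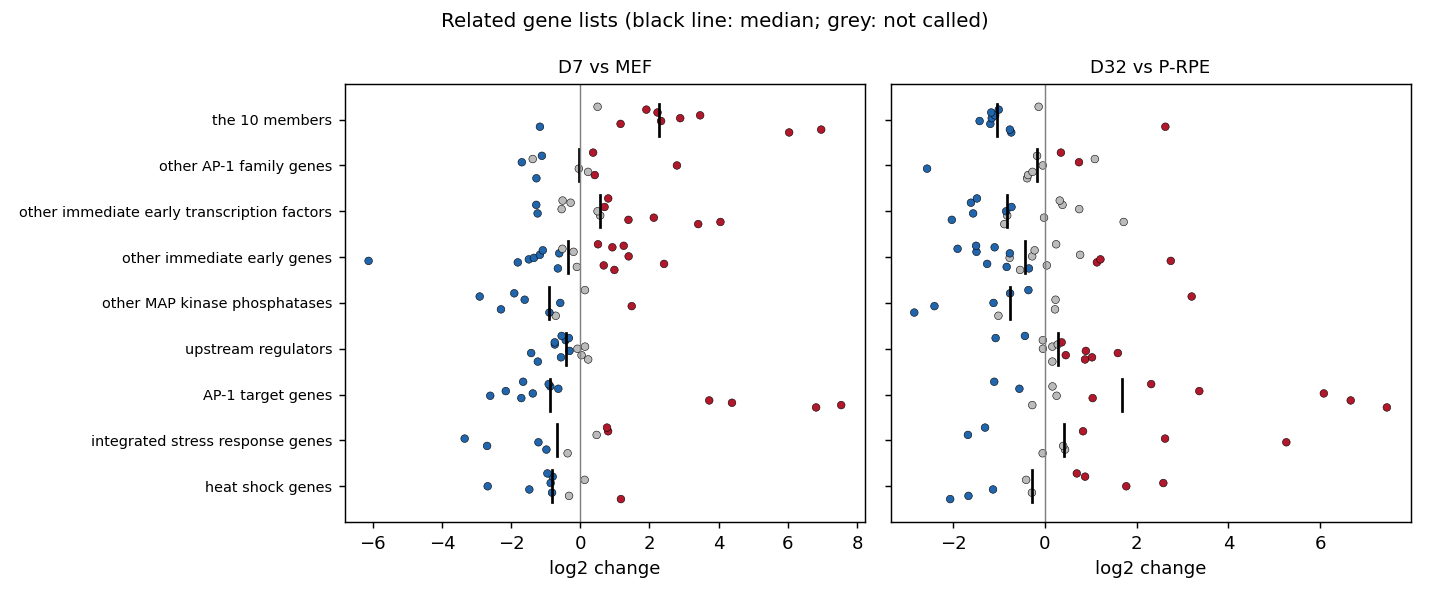
Log2 change of the 10 genes and of the related gene lists, each point a gene, for 2 of the comparisons, with a line at each list's median. Red points were called higher, blue lower and grey not called, and a gene with 0 counts in a group is not drawn; for D7 vs MEF the median of the 10 genes is 2.28.

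The make-up of the Fos family differed between MEF and all other groups, P-RPE included, when levels were put on a per-length scale. Of the summed RPKM of Fos, Fosb, Fosl1 and Fosl2, Fosl2 held 62.9% ± 0.84 in MEF, 2.69% ± 0.73 in D7, 1.56% ± 0.17 in D18 and 5.12% ± 0.21 in D32 (SD, n = 3 each), and 4.23% in P-RPE (n = 2). Fosl2 encodes Fra-2, the other Fra protein. Fos held 11.3% in MEF, 73.7% in D7, 85.6% in D18, 79.1% in D32 and 79.9% in P-RPE. Fosb peaked at 22.5% in D7, and Fosl1 held 23.9% in MEF and at most 1.12% in the mean of any other group. The shares depend on the length used. Longest-transcript lengths gave Fos 66.0% and Fosb 29.8% in D7, and Fos 72.6% in D32 and 9.36% in MEF. Reads of Fosl1 may be shared with Ccdc85b, as given above.

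The summed level of the Fos family was 64.0 to 66.1 RPKM in MEF, 524 to 816 in D7, 556 to 983 in D18 and 274 to 301.3 in D32, and 346 and 598 RPKM in P-RPE. In the Jun family, Jun held the largest share in MEF (48.0%), and Junb in D7 (60.3%), D18 (49.2%), D32 (55.3%) and P-RPE (62.1%). With longest-transcript lengths in place of all exons, Junb held slightly more than Jun in MEF too (44.0% and 43.4%). The ratio of Fos family to Jun family RPKM was 0.337 to 0.354 in MEF, 0.992 to 1.23 in D7, 1.02 to 1.34 in D18, 0.793 to 0.971 in D32, and 0.588 and 0.641 in P-RPE. All MEF libraries were below all other libraries on this ratio.

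**Figure D4:**
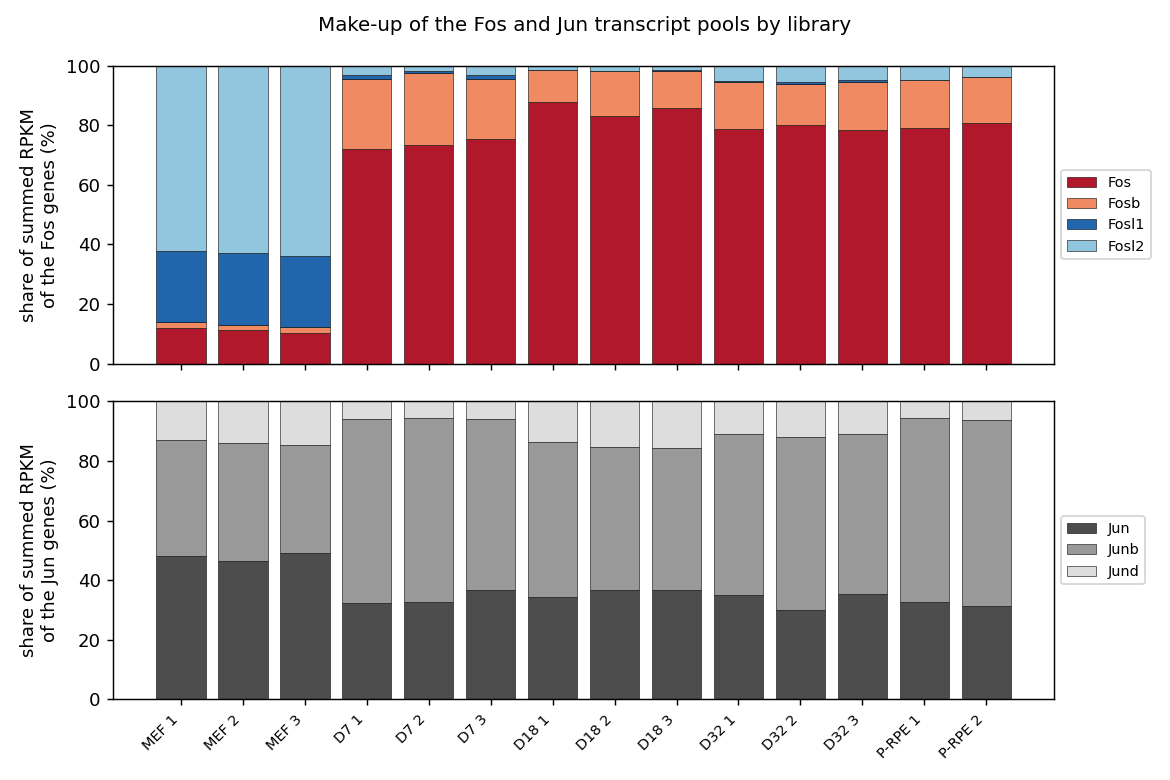
Share of each gene in the summed RPKM of the Fos family and of the Jun family, in percent, with 1 bar per library and P-RPE last. In group means, Fosl2 and Fosl1 make up most of the Fos family in MEF (62.9% and 23.9%), and Fos makes up 73.7% to 85.6% of it in the other groups.

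In D18 and P-RPE, the 10 genes ranked the replicates alike. In D18, replicate 1 was the highest and replicate 3 the lowest library for 10 of 10 genes, whereas replicate 1 was highest for 34.0% and replicate 3 lowest for 34.8% of all tested genes. In P-RPE, replicate 2 was above replicate 1 for 10 of 10 genes, against 55.0% of all tested genes. In D7, replicate 2 was highest for 8 genes (42.6% of all tested genes) and replicate 3 lowest for 8 (38.3%). In MEF, replicate 2 was highest for 8 genes (43.2%), and replicates 1 and 3 were lowest for 5 (42.4%) and 4 (37.8%). In D32 the genes did not rank the replicates alike, with replicates 1, 2 and 3 highest for 1, 4 and 5 genes and lowest for 2, 6 and 2.

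The median coefficient of variation of the 10 genes was 33.5% in D18 and 30.2% in P-RPE (n = 2), where genes at 10 CPM or more had medians of 9.92% and 7.43%. It was 12.9% in D7 (all such genes 8.04%), 12.6% in D32 (13.9%) and 4.10% in MEF (3.81%). The floor of 10 CPM, on the mean of the group, was not put on the 10 genes. Fosl1 lay below it in D18, D32 and P-RPE, and Fosb, Egr2 and Atf3 lay below it in MEF. Fibroblast markers summed to 15150, 13080 and 3551 CPM in D18 replicates 1, 2 and 3, and mitochondrial genes took 2.26%, 1.64% and 1.81% of counts. In P-RPE, mitochondrial genes took 2.83% of counts in replicate 1 and 1.91% in replicate 2, and the 9 heat shock genes summed to 3430 and 2994 CPM. The part of these in the spread was not tested.

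**Figure D5:**
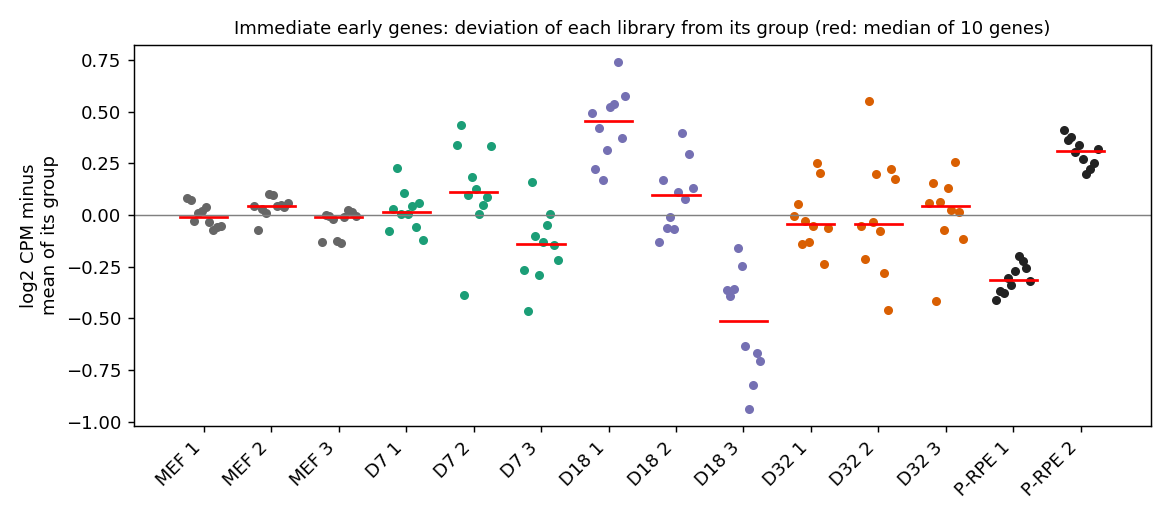
Deviation of each library from its group mean in log2 CPM for the 10 genes, by group and replicate. In D18 all 10 genes are highest in replicate 1 and lowest in replicate 3, and in P-RPE all 10 are higher in replicate 2.

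Summed, the 10 genes took 0.0914% to 0.0971% of all counts in MEF, 0.586% to 0.806% in D7, 0.422% to 0.700% in D18, 0.267% to 0.301% in D32, and 0.369% and 0.586% in P-RPE.

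Genes with the most similar course over the 14 libraries were looked up by the root mean square difference of centred log2 CPM among 10442 genes at 10 CPM or more on average. Fos lay nearest to Col23a1, a membrane collagen (0.30), ahead of Fosb (0.40), and Fosb lay nearer to Fos than to any other gene. Ier2 lay nearest to Junb (0.27). Dusp1 lay nearest to Btg2 (0.23), an antiproliferative gene that is itself immediate early, and Jun to Fmc1 (0.19). Fosl1 lay nearest to Uhrf1, which maintains DNA methylation in dividing cells (0.49), while 7814 genes were closer to it than its nearest fellow member, Jun (2.43). That count was 1026 for Dusp1, 236 for Atf3, 170 for Jun and 16 for Egr2, and at most 2 for the remaining members. These distances describe libraries that share the same group structure.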

How the data were processed

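Counts of RNA-seq reads per gene symbol were deposited by the authors as whole numbers for 14 mouse libraries (paired ends of 150 bases, per the labels' protocols). STAR 2.7.11a, Subread with featureCounts, limma 3.58.1 and edgeR 4.0.16 are listed in the submitters' processing notes. The strand setting, multimapping and annotation release are not given in the sources used here. Groups and replicate numbers came from sample titles. A human table was not used here.

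From these counts, genes were kept with filterByExpr, scaled by TMM and fitted in edgeR 4.0.16 (R 4.3.3) with 1 quasi-likelihood model of 5 group means over all 14 libraries. Calls are at a Benjamini-Hochberg adjusted p under 0.05 over the 20562 genes tested, with no minimum fold. The SE is the log2 change over the square root of F. RPKM uses the union of exons in GENCODE vM21 (GRCm38). The pipeline was tested on simulated counts. The 6 main comparisons were planned, and 4 more were added only to order neighbouring groups. In the order of levels, means "did not differ beyond their spread" where that test gave no call. The spread is the one the model estimated for each gene over all 14 libraries, so libraries of such groups may still not overlap.

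Alternatives were other scalings, filters, DESeq2 1.42.0, limma-voom, models of 2 groups, a replicate block and leaving out each library. The genes and lists were chosen with earlier results of these data known. All 10 genes are named. Of each other list, the rule took, per direction, the 2 called genes that changed most, and the highest-expressed gene not called, and the text names some of these.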

Additional observations from a re-analysis of the deposited data

How the results depend on the processing

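Of 820 refits of single genes among the 10, 767 kept direction and side of the threshold, 23 lost the call, 16 gained one and 14 changed sign, none of these a called value. The signs that changed were Jun in D18 vs D7 with library totals alone (-0.068), and Ier2 there with library totals (-0.15), without D7 replicate 3 (-0.02) and without D18 replicates 1 (-0.10) and 2 (-0.06), its range over left-out libraries being -0.10 to 0.34. Egr2 in D32 vs D18 changed with RLE factors (-0.051), a mean of at least 5 CPM (-0.0046), DESeq2 (-0.050), 2 groups only (-0.010), without D18 replicate 3 (-0.32) and without D32 replicate 1 (-0.11), with a range of -0.32 to 0.27. Dusp1 in D32 vs P-RPE changed with library totals (0.087), the replicate block (0.0075) and without P-RPE replicate 2 (0.22), with a range of -0.42 to 0.22; the cause was not tested. Leaving out 1 library gave 4 to 9 of the 10 genes called in D32 vs P-RPE, 4 to 6 in D18 vs D7, 7 to 9 in D32 vs D18, 8 to 9 in D32 vs MEF, 9 to 10 in P-RPE vs MEF and 9 in D7 vs MEF. With no filter on low counts, 6 of the 10 genes were called in D32 vs P-RPE, against 9. That setting also lost Dusp1 in D32 vs MEF (edgeR adjusted p = 0.0907) and P-RPE vs MEF (0.0783), and Fosb in D18 vs D7 (0.0581). Over all genes, P-RPE vs MEF gave 9588 calls at a mean of at least 5 CPM, where fewer genes were tested, against 14528. Same-numbered replicates of different groups deviated with correlations of -0.10 to 0.10 over 26 pairs of libraries. With 2 or 3 libraries per group, such correlations cannot tell whether the numbers pair the samples. With the number as a replicate block, D7 vs MEF gave 11138 calls over all genes, against 11302. That block called 7 of the 10 genes in D32 vs P-RPE, against 9 (Fos at an edgeR adjusted p of 0.0598, Fosb at 0.0528). In D32 vs D18 it called 8, against 7 (Dusp1 at an edgeR adjusted p of 0.0423). Counts of P-RPE rest on 2 libraries, and low levels such as Fosl1 in P-RPE rest on few reads.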

Other observations

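Genes known as AP-1 targets did not move as a block with Fos and Fosb. Of 12 such genes, 4 rose and 8 fell in D7 vs MEF, where 28.5% of all tested genes rose and 26.5% fell. The matrix-degrading proteases Mmp9 (129 ± 16.5 CPM in D7 and 0.692 ± 0.21 CPM in MEF, SD, n = 3 each) and Mmp3 (584.5 ± 99.9 CPM in D7 and 5.19 ± 0.99 CPM in MEF) rose by 7.54 and 6.82 on the log2 scale. Plaur, the urokinase receptor, averaged 35.3 ± 5.59 CPM in D7 and 214 ± 3.00 CPM in MEF, and Cd44, the hyaluronan receptor, averaged 239.7 ± 38.4 CPM in D7 and 1067 ± 26.6 CPM in MEF, and both fell.

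In D18 vs D7, 3 of the 12 rose and 7 fell, where 29.2% of all tested genes rose and 27.4% fell. Mmp9 averaged 2.88 ± 0.46 CPM in D18 and 129 ± 16.5 CPM in D7. In the same comparison Fos, at 1123 CPM or more in every D18 library, was not called, and Fosb and Fosl1 fell. The part of these genes in the level of Mmp9 was not tested. In P-RPE vs MEF, 1 was higher and 10 were lower, where 39.3% of all tested genes were higher and 31.4% lower. Among the lower genes was Timp1, a protease inhibitor, at 2.44 CPM in P-RPE (n = 2) and 269.9 CPM in MEF (n = 3). In D32 vs P-RPE, 7 of the 12 were higher in D32 and 2 lower, so P-RPE was again the lower side for more of the list. Of all tested genes, 27.1% were higher and 26.8% lower in that comparison.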
